A study of Mus musculus with 16 samples.

Results

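The cluster of miR-182, miR-183 and miR-96 is a group of 3 miRNA hairpins that lie close together on mouse chromosome 6. Its members were taken by name: every mature arm of miR-182, miR-183 and miR-96 in the count table, which gave 6 of the 1372 miRNA names used. Small RNA libraries had been made from dendritic cells cultured from the bone marrow of 4 wild-type male C57BL/6 mice, with each mouse giving 1 library to each of 4 groups. The quercetin plus LPS group received quercetin at 25 µM on days 5 and 7 and then LPS at 1 µg/mL for 6 h on day 8. The quercetin group received the quercetin alone, the LPS group the LPS alone, and the control group neither. Mice 1 to 3 are labelled as 8 weeks old and mouse 4 as 7 weeks old, and 1 label omits the sex. LPS, lipopolysaccharide, is a bacterial outer membrane component that activates Toll-like receptor 4, and quercetin is a plant flavonol. Red cells had been lysed before culture, the label on growth is incomplete, and a culture of this kind can hold cells other than dendritic cells.

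Hairpins of a miRNA cluster are usually cut from a shared primary transcript, and each hairpin gives a 5p and a 3p arm. One arm is mostly kept as the guide that an Argonaute protein uses to find target mRNAs, chiefly by pairing through the seed, bases 2 to 8. The cluster is best known from sensory organs, such as the photoreceptors of the retina and the hair cells of the inner ear, and changes in the seed of miR-96 cause hearing loss in mice and humans. In mouse T helper cells, miR-182 is induced by interleukin-2 signalling and represses the transcription factor Foxo1.

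The mature sequences of the 4 arms abundant enough to be tested are shown because the 5p arms resemble each other closely enough for their reads and their targets to be compared. They are from RefSeq, build GRCm38.p6, written 5′ to 3′ with the seed in capitals:
miR-182-5p: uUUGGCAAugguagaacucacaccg
miR-96-5p: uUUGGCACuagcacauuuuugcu
miR-183-5p: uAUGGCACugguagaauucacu
miR-183-3p: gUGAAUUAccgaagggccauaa

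The 4 arms lie on the minus strand at chr6:30165962-30165986, chr6:30169506-30169528, chr6:30169711-30169732 and chr6:30169672-30169693, in the order shown. In the direction of transcription the hairpin genes are Mir183 (chr6:30169668-30169737), Mir96 (chr6:30169446-30169551) and Mir182 (chr6:30165918-30165992). There are 116 bases between Mir183 and Mir96, 3453 bases between Mir96 and Mir182, and the whole cluster spans 3820 bases. No other gene in GENCODE M21, on the same build, overlaps any of the 3 hairpins. The nearest protein-coding genes to Mir182 are Nrf1, which ends 12460 bases away, and Ube2h, which ends 45297 bases away, so the hairpins are intergenic and not within an exon or intron of either.

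Counted from base 1 at the 5′ end, miR-182-5p and miR-96-5p share the hexamer UUGGCA at bases 2 to 7 and differ within the seed by A8C, with the miR-182-5p base given first. Over the whole length compared they have the same base at 12 of 23 positions. miR-182-5p and miR-183-5p are the most alike over their length, with 18 of 22 positions the same and the differences U2A, A8C, C17U and A22U. miR-183-5p and miR-96-5p have 13 of 22 positions in common and differ in the seed by A2U. Thus miR-183-5p and miR-182-5p carry different seeds in similar bodies, whereas miR-96-5p carries a seed close to that of miR-182-5p in a different body. The full seed of miR-96-5p also occurs in miR-1271-5p, which is not among the names analysed here. No member had the same counts as another name in every library.

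Library totals were 6454535 to 9035375 counts with quercetin plus LPS, 7694885 to 8563815 with quercetin, 10096639 to 13943904 with LPS and 8660267 to 12529118 in controls. Totals of the quercetin libraries were therefore mostly lower, and levels are given below as CPM, counts divided by a library size that was scaled by TMM. Of the 1372 names, 568 were abundant enough to test. Quercetin plus LPS replicate 4, quercetin replicate 4, LPS replicate 4 and control replicate 3 lay apart from the other libraries of their groups on the second principal component, which held 22.0% of the variance. Replicate 1 with quercetin plus LPS also stood away from replicates 2 and 3 of its group: on that component it was at 6.99, on the side of replicate 4, against -8.77 and -11.4 for replicates 2 and 3. The members' quercetin calls are given with and without the 4 libraries. The summed level of 10 myeloid miRNAs such as miR-223-3p, miR-142a-3p and miR-21a-5p was 329675 to 502217 CPM with quercetin plus LPS, 342382 to 372806 with quercetin, 388955 to 529188 with LPS and 345246 to 453172 in controls. Most of this sum was miR-21a-5p and miR-22-3p, with control means of 134859 and 150322 CPM. The control means of miR-223-3p and miR-142a-3p were 2397 and 1570 CPM, so the sum says little about them.

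Among the arms, miR-182-5p was by far the most counted, at 738478 counts over the 16 libraries, against 59613 for miR-183-5p and 845 for miR-96-5p. Ranked by mean CPM among the 1372 names, miR-182-5p stood at place 21 with quercetin plus LPS, 21 with quercetin, 35 with LPS and 36 in controls. miR-96-5p, from the hairpin in the middle of the cluster, stood at places 311, 332, 397 and 408 in the same groups. Counts of different miRNAs are not proportional to their molecules, because small RNA adapters ligate to some sequences more readily than to others.

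The 5p arm dominated every hairpin. For miR-182 it held 99.998% of the hairpin's counts, and miR-182-3p had 12 counts in all, with 0 in 12 of 16 libraries. For miR-96 the 5p arm held 99.1%, and miR-96-3p had 8 counts in all, with 0 in 11 libraries. A count of 0 allows a level of up to 0.215 to 0.465 CPM, depending on the library (3 counts; counting error only). The 3p arms of miR-182 and miR-96 were too sparse to test. The exception was miR-183-3p, with 967 counts and a nonzero count in every library, which left 98.4% of the miR-183 counts on the 5p arm.

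miR-182-5p was higher in cells given quercetin, whether or not LPS followed. Its level in mice 1 to 4 was 6194, 6542, 5435 and 10359 CPM with quercetin plus LPS. It was 5352, 7798, 6386 and 7419 CPM with quercetin alone. It was 2466, 5641, 2235 and 3828 CPM with LPS alone, and 1929.7, 3515, 3855 and 2471 CPM in controls. Every quercetin library lay above every control library, whereas the quercetin plus LPS and LPS groups overlapped by the LPS library of mouse 2. The share of all 568 tested miRNAs with no such overlap was not computed, so the separation of this arm and those below has no background. For quercetin over control, 155 of the 568 had an unadjusted p under 0.05 (edgeR). Within each mouse, the library with quercetin was the higher in 4 of 4 mice both with and without LPS.

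The group means of miR-182-5p were 7133 ± 2200 CPM with quercetin plus LPS, 6739 ± 1101 with quercetin, 3543 ± 1566 with LPS and 2942 ± 896 in controls (SD, n = 4 each). In this order, the neighbours quercetin plus LPS and quercetin differed by less than their spread, as did LPS and control. The log2 fold change was 1.20 ± 0.31 (SE) for quercetin over control, a 2.29-fold higher level (adjusted p = 0.0160, edgeR quasi-likelihood test). For quercetin plus LPS over LPS it was 1.01 ± 0.31, or 2.01-fold (adjusted p = 0.0286, edgeR). Without mouse 4, quercetin over control gave 1.07 (adjusted p = 0.0872) and quercetin plus LPS over LPS gave 0.81 (adjusted p = 0.164), and neither passed (edgeR). Without the 4 libraries that lay apart, quercetin over control gave 1.30 (adjusted p = 0.0357) and still passed, and quercetin plus LPS over LPS gave 0.81 (adjusted p = 0.139, edgeR). Without quercetin plus LPS replicate 1, that comparison gave 1.22 (adjusted p = 0.0171, edgeR). This fit also changed the reference library of the TMM scaling. With all 16 libraries kept, other reference libraries gave 1.06 to 1.20, so 1.22 is not the effect of that replicate alone. In bulk libraries such as these, a change in the share of cells that hold a miRNA cannot be told apart from a change in its amount per cell.

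**Figure D1:**
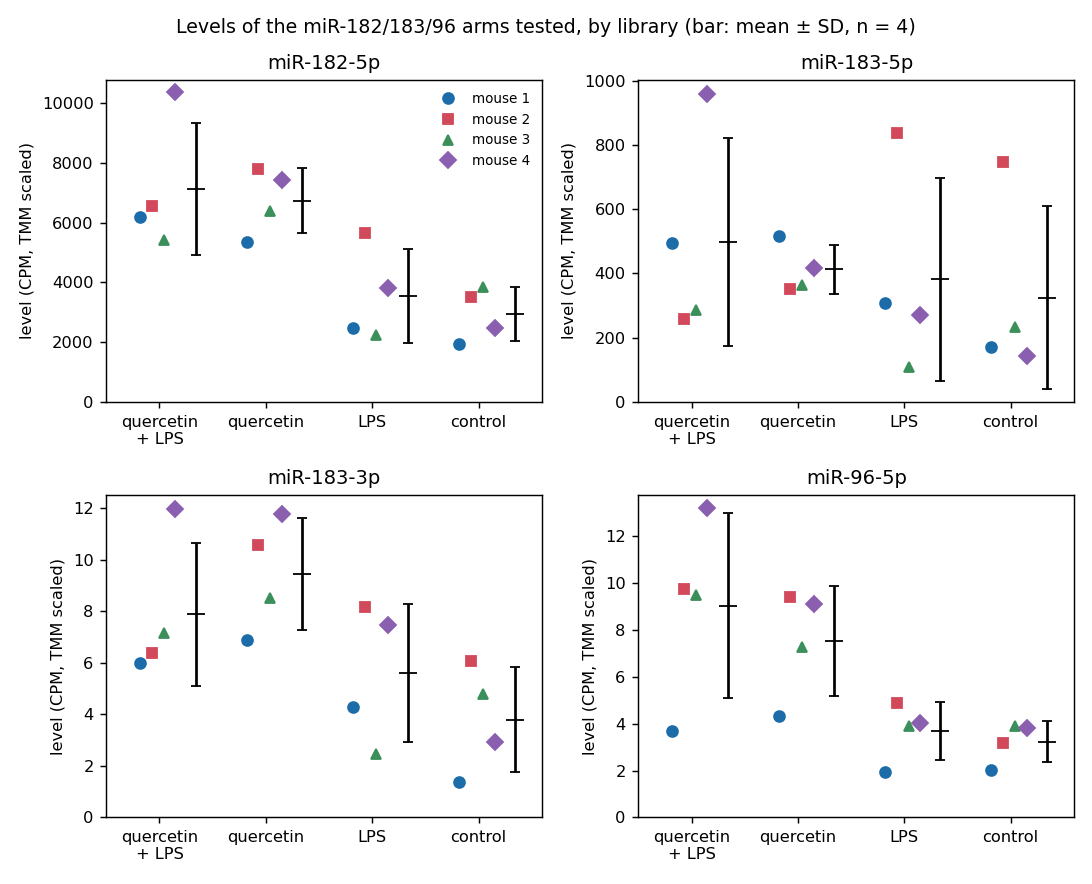
Level of miR-182-5p, miR-183-5p, miR-183-3p and miR-96-5p in each library, in CPM on linear axes from 0, by group, with points for the 4 mice and a bar for the mean ± SD. For miR-182-5p every quercetin library is above every control library, and for miR-183-5p the groups overlap.

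miR-96-5p showed a rise of similar size from a far lower level. In mice 1 to 4 it was 3.71, 9.75, 9.50 and 13.2 CPM with quercetin plus LPS. It was 4.31, 9.42, 7.26 and 9.12 CPM with quercetin alone. It was 1.94, 4.87, 3.89 and 4.02 CPM with LPS alone, and 2.01, 3.18, 3.89 and 3.81 CPM in controls. Quercetin and control libraries did not overlap, while the quercetin plus LPS library of mouse 1 fell within the LPS range. Mouse 1 had the lowest level in all 4 groups, and the library with quercetin was higher in 4 of 4 mice with and without LPS.

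The means of miR-96-5p were 9.04 ± 3.93 CPM with quercetin plus LPS, 7.53 ± 2.35 with quercetin, 3.68 ± 1.24 with LPS and 3.22 ± 0.869 in controls (SD, n = 4 each). The log2 fold change was 1.23 ± 0.39 (SE) for quercetin over control (adjusted p = 0.0419, edgeR) and 1.29 ± 0.39 for quercetin plus LPS over LPS (adjusted p = 0.0274, edgeR). These levels rest on 23 to 98 counts per library. The call for quercetin over control was narrow: limma-voom gave 1.22 with an adjusted p of 0.0620, and it was lost on leaving out any 1 of control replicates 1, 2 and 4 or quercetin replicates 2, 3 and 4 (adjusted p 0.0586 to 0.103, edgeR). Without mouse 4 neither comparison passed, at 1.22 (adjusted p = 0.135) and 1.10 (adjusted p = 0.155, edgeR). Without the 4 libraries that lay apart neither passed, at 1.22 (adjusted p = 0.120) and 1.10 (adjusted p = 0.135, edgeR). Without quercetin plus LPS replicate 1, miR-96-5p was 1.70 for quercetin plus LPS over LPS (adjusted p = 0.00354, edgeR). This fit again changed the reference library, and with all 16 libraries kept other references gave 1.31 to 1.46.

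The 2 arms of miR-183 are described in turn, and their responses to quercetin were not shown to differ. For quercetin over control, the 5p share of miR-183 counts gave p = 0.114 (exact permutation test, adjusted p = 0.914). The 5p arm was 493, 259, 285 and 957 CPM in mice 1 to 4 with quercetin plus LPS, and 518, 352, 364 and 417 CPM with quercetin. It was 309.6, 836, 109 and 272 CPM with LPS, and 171, 747, 234 and 143 CPM in controls. All 4 groups overlapped, with mouse 2 the highest in LPS and control and mouse 4 the highest with quercetin plus LPS. The means were 499 ± 323, 413 ± 75.2, 382 ± 315 and 324 ± 285 CPM in the same order of groups (SD, n = 4 each), so no neighbouring pair differed beyond its spread. The log2 fold change of miR-183-5p was 0.35 ± 0.59 (SE) for quercetin over control (adjusted p = 0.751) and 0.38 ± 0.59 for quercetin plus LPS over LPS (adjusted p = 0.704, edgeR). With an SE of this size a change as large as that of miR-182-5p was not detectable, and the library with quercetin was higher in 3 of 4 mice in each comparison.

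The 3p arm of miR-183, usually the discarded strand, was 5.97, 6.39, 7.16 and 11.97 CPM in mice 1 to 4 with quercetin plus LPS, and 6.89, 10.6, 8.51 and 11.8 CPM with quercetin. It was 4.30, 8.18, 2.46 and 7.47 CPM with LPS, and 1.39, 6.06, 4.77 and 2.94 CPM in controls. Quercetin libraries lay above all controls, a separation not counted over all miRNAs, and the groups with LPS overlapped. The means were 7.87 ± 2.78 CPM with quercetin plus LPS, 9.43 ± 2.16 with quercetin, 5.60 ± 2.69 with LPS and 3.79 ± 2.05 in controls (SD, n = 4 each). The log2 fold change of miR-183-3p was 1.32 ± 0.44 (SE) for quercetin over control (adjusted p = 0.0484) and 0.49 ± 0.43 for quercetin plus LPS over LPS (adjusted p = 0.458, edgeR). The pass was narrow: it was lost on leaving out any 1 of control replicates 1 and 4 or quercetin replicates 2, 3 and 4 (adjusted p 0.0586 to 0.120), without mouse 4 (1.10, adjusted p = 0.216) and without the 4 libraries that lay apart (1.33, adjusted p = 0.116, edgeR).

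In all, 3 of the 4 tested arms were higher with quercetin than in controls, in a comparison where 6.87% of all tested miRNAs were called higher. With quercetin plus LPS against LPS, 2 of 4 were higher, where 8.63% of all were. The cluster was chosen with earlier results of these data known, and some of its arms varied together. The 4 arms are therefore not independent draws to set against shares of all miRNAs. Without mouse 4, 0 of 4 arms passed in either comparison, and without the 4 libraries that lay apart 1 of 4 passed for quercetin over control (miR-182-5p) and 0 of 4 for quercetin plus LPS over LPS. The median log2 fold change of all tested miRNAs was -0.05 for quercetin over control, where 39 were called higher and 51 (8.98%) lower. It was -0.13 for quercetin plus LPS over LPS, where 49 were called higher and 81 (14.3%) lower. Other scalings moved these medians to as much as 0.15 (upper quartile, 48 higher and 29 lower) for quercetin over control and 0.15 (library size, 75 higher and 50 lower) for quercetin plus LPS over LPS. In the latter comparison the counts also depended on the TMM reference library, described below. With each library but the default as the reference, 50 to 75 were called higher and 58 to 76 lower. The 49 and 81 of the default lie outside both ranges, and the 8.63% rests on that 49. Averaged over both LPS states, the quercetin difference was 1.10 ± 0.22 for miR-182-5p (adjusted p = 0.00102), 1.26 ± 0.27 for miR-96-5p (adjusted p = 0.00217) and 0.91 ± 0.30 for miR-183-3p (adjusted p = 0.0282, edgeR). For miR-183-5p it was 0.37 ± 0.42 (adjusted p = 0.556, edgeR). Thus 3 of 4 arms passed, where 16.2% of all miRNAs were called higher and 20.1% lower (92 and 114, against 125 and 75 with upper quartile scaling), and these 3 calls held on leaving out any 1 library. Without mouse 4, miR-182-5p (0.94, adjusted p = 0.0190) and miR-96-5p (1.16, adjusted p = 0.0252) still passed, while miR-183-3p did not (0.74, adjusted p = 0.145, edgeR). Without the 4 libraries that lay apart, miR-182-5p was 1.06 (adjusted p = 0.00735) and miR-96-5p 1.16 (adjusted p = 0.0192), and miR-183-3p did not pass (0.86, adjusted p = 0.0917, edgeR).

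**Figure D2:**
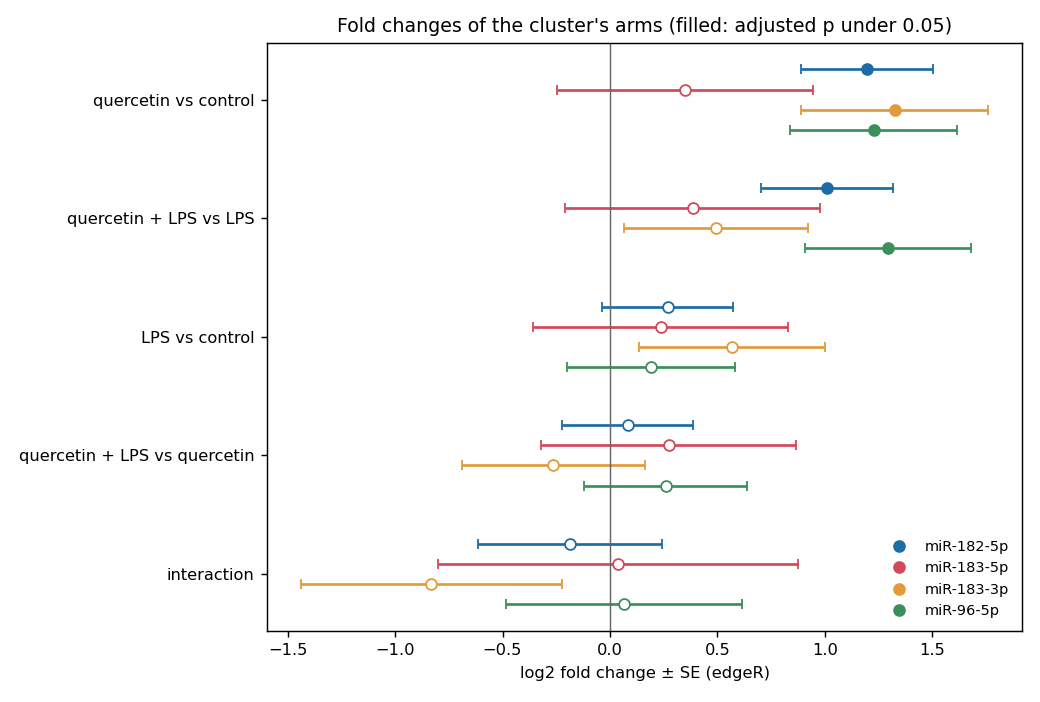
Log2 fold change of the 4 tested arms in each comparison with its SE. The quercetin comparisons of miR-182-5p and miR-96-5p lie near 1 or above, filled points mark an adjusted p under 0.05, and no arm is filled for LPS over control, quercetin plus LPS over quercetin or the interaction.

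These sizes depend on how the libraries were scaled. TMM scales every library to a reference library, by default quercetin replicate 1 here. With each of the other 15 libraries as the reference, chosen as an alternative after seeing the data, miR-182-5p ranged over 1.11 to 1.27 for quercetin over control and 1.06 to 1.20 for quercetin plus LPS over LPS, and passed under all 15. The default reference gave the lowest of the 16 values for quercetin plus LPS over LPS. miR-96-5p passed under all 15 for quercetin plus LPS over LPS and under 12 for quercetin over control. miR-183-3p passed under 11 for quercetin over control. Library size, DESeq2 size factor and upper quartile scaling also left miR-182-5p called in both comparisons.

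Because miR-182-5p is abundant, it can be placed among the 68 miRNAs with a mean of at least 1000 CPM. By log2 fold change it stood at place 3 of 68 for quercetin over control and at place 5 for quercetin plus LPS over LPS. Averaged over both LPS states it was at place 3, after miR-486a-5p and miR-486b-5p, red cell miRNAs that carry identical counts here and cannot be told apart. Among all 568 miRNAs tested, miR-182-5p stood at place 46 for quercetin over control and at place 62 for quercetin plus LPS over LPS. It was at place 56 of 568 when averaged over both LPS states.

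**Figure D3:**
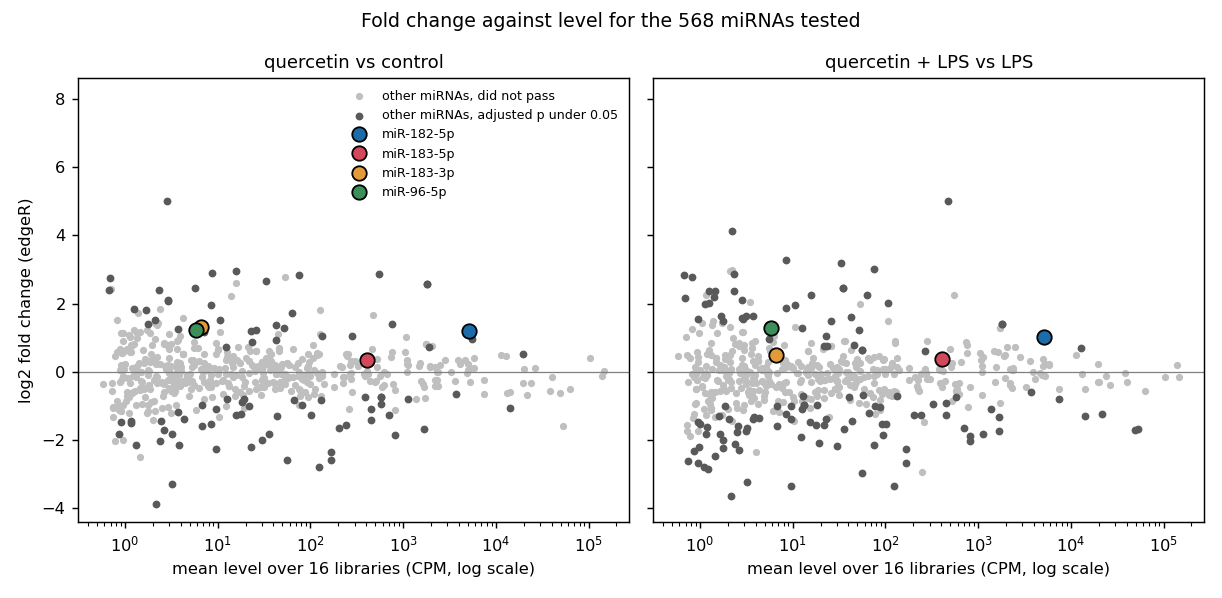
Log2 fold change of each tested miRNA against its mean CPM (log axis) for quercetin over control and for quercetin plus LPS over LPS, with the 4 arms of the cluster marked. miR-182-5p lies at the upper edge of the abundant miRNAs, at place 3 and place 5 of the 68 above 1000 CPM.

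LPS alone moved no arm past the threshold. Against controls the log2 fold change in LPS cells was 0.27 ± 0.30 for miR-182-5p, 0.24 ± 0.59 for miR-183-5p, 0.57 ± 0.43 for miR-183-3p and 0.19 ± 0.39 for miR-96-5p (SE, adjusted p = 0.999 each, edgeR). Thus 0 of 4 arms were called where 0.528% of all miRNAs were, with 0 at an unadjusted p under 0.05 and 0 by DESeq2 and limma-voom. With quercetin plus LPS against quercetin the values were 0.08 ± 0.30 for miR-182-5p, 0.27 ± 0.59 for miR-183-5p, -0.26 ± 0.42 for miR-183-3p and 0.26 ± 0.38 for miR-96-5p. Again 0 of 4 were called in edgeR, at an unadjusted p under 0.05, in DESeq2 and in limma-voom, where 0.352% of all were. Averaged over both quercetin states, 0 of 4 arms were called for LPS, where 1.41% of all were.

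Whether the quercetin difference itself depended on LPS was tested by the interaction. It was -0.19 ± 0.43 for miR-182-5p (adjusted p = 0.923), 0.04 ± 0.84 for miR-183-5p (adjusted p = 0.988), -0.83 ± 0.61 for miR-183-3p (adjusted p = 0.893) and 0.07 ± 0.55 for miR-96-5p (adjusted p = 0.979, edgeR). The pass of miR-183-3p without LPS and its miss with LPS are therefore not shown to differ. No miRNA of the 568 passed for the interaction by edgeR, DESeq2 or limma-voom, and 26 had an unadjusted p under 0.05.

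Shares within the cluster need no scaling between libraries. miR-182-5p made up 93.7% ± 2.10 of the 5p counts of the cluster with quercetin plus LPS, 93.9% ± 1.94 with quercetin, 91.1% ± 3.80 with LPS and 90.7% ± 5.64 in controls (SD, n = 4 each). miR-183-5p made up 6.15% ± 2.13, 5.96% ± 1.96, 8.83% ± 3.84 and 9.22% ± 5.66 in the same groups, with 17.5% in control replicate 2. miR-96-5p stayed near 0.1%, at 0.120% ± 0.0477, 0.103% ± 0.0203, 0.102% ± 0.0440 and 0.103% ± 0.0302. The groups overlapped for each share.

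The share of miR-183-5p was 3.26 percentage points lower with quercetin than in controls (exact permutation test, two-sided, p = 0.343). It was 2.68 points lower with quercetin plus LPS than with LPS (exact p = 0.314). Of 16 share tests, the smallest exact p was 0.114, for the 5p share of miR-183 counts, which was 97.7% ± 0.718 with quercetin and 98.6% ± 0.692 in controls (SD, n = 4 each). It was lower in 4 of 4 mice, by 0.909 points on average, and its adjusted p was 0.914. It was also lower in 4 of 4 mice with LPS than in controls, at 98.2% against 98.6%, by 0.398 points (exact p = 0.429). The smallest p that 4 against 4 libraries allow is 0.0286, and 4 mice, each compared with itself, allow no two-sided p under 0.05. The widest 95% Wilson interval of a single library, which covers counting error only, was 0.732 points for the miR-182-5p share and 0.731 for the miR-183-5p share, below the SD between mice in every group. It was 0.0935 points for the miR-96-5p share and 1.55 points for the 5p share of miR-183, above the SD between mice in every group. The full width of a 95% interval spans more than 1 SD of counting error. These 2 widths therefore do not show that counting error exceeds the spread between mice. The narrowest interval for the 5p share of miR-183 was 0.412 points, below the SD in every group.

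**Figure D4:**
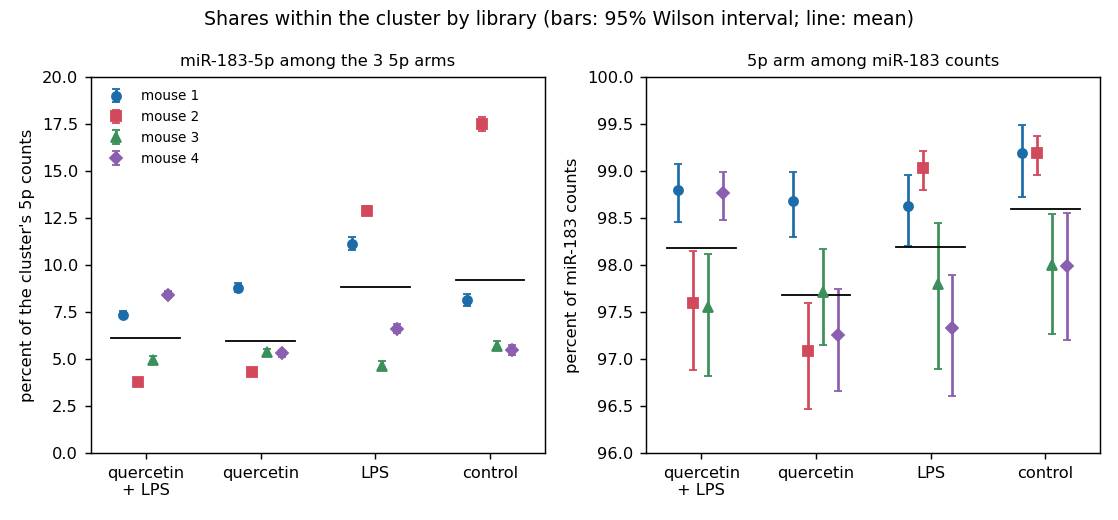
Share of miR-183-5p in the 5p counts of the cluster (left) and share of the miR-183 counts on its 5p arm (right, axis not from 0), in percent, by group, with points for the 4 mice, bars for the 95% Wilson interval and lines for the group means. The groups overlap in both panels, and control replicate 2 has the highest miR-183-5p share at 17.5%.

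Over the 16 libraries the arms varied together to different degrees. On log2 CPM, miR-182-5p and miR-183-3p had a Pearson r of 0.91 (Spearman 0.86), and 0.90 after the group means were removed. miR-182-5p and miR-96-5p had an r of 0.85 (Spearman 0.83), and 0.61 within groups. miR-182-5p and miR-183-5p had 0.67 (Spearman 0.57), and miR-183-5p and miR-96-5p had the weakest, 0.32 (Spearman 0.28), falling to 0.07 within groups. The 2 arms of miR-183 had 0.72 (Spearman 0.67). The libraries share mice and a scaling, so these values are descriptions.

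The miRNA most like the summed 5p arms of the cluster over the 16 libraries was miR-1948-3p, with a Pearson r of 0.94 and of 0.86 within groups. It was followed by miR-10b-5p (0.87, within groups 0.70), let-7c-5p (0.86, within groups 0.60), miR-30a-3p (0.86, within groups 0.83) and miR-215-5p (0.85, within groups 0.64). miR-10b-5p is encoded in a Hox gene cluster, and let-7c-5p belongs to a family linked to differentiation. Both have near-identical relatives, so their counts are uncertain.

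Erythroid miRNAs, which mark red cell precursors, and in LPS-treated cells stromal miRNAs were higher with quercetin as miR-182-5p was, and their part in the result was not tested. Of 6 erythroid names, miR-486a-5p and miR-486b-5p are counted once here, which leaves 5. Of these, 4 were higher for quercetin over control and 4 for quercetin plus LPS over LPS, with median log2 fold changes of 2.56 and 2.86. Without mouse 4, miR-144-3p and miR-144-5p lost the call for quercetin over control (adjusted p = 0.0603 and 0.0612) and miR-486a-5p lost it for quercetin plus LPS over LPS (adjusted p = 0.0619, edgeR). Without the 4 libraries that lay apart, miR-144-3p also lost the call for quercetin over control (adjusted p = 0.0805, edgeR). The summed level of the 5 was 1268 to 3041 CPM with quercetin plus LPS, 2585 to 6649 with quercetin, 443 to 1409 with LPS and 398 to 893 in controls. Of 5 stromal miRNAs, such as miR-143-3p, 0 were higher for quercetin over control and 3 for quercetin plus LPS over LPS, of which miR-143-3p and miR-145a-5p lost the call without quercetin plus LPS replicate 2. With mouse as a replicate block, miR-143-3p also lost it (3.57, adjusted p = 0.0577, against 5.00 and 0.0147 without the block, edgeR). Their sum was 95.6 to 4468 CPM with quercetin plus LPS, 83.5 to 1239 with quercetin, 32.5 to 77.9 with LPS and 24.2 to 452 in controls.

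Epithelial and neural or sensory lists were examined because the cluster is abundant in such tissues. Of 8 epithelial miRNAs, 1 was higher for quercetin plus LPS over LPS, miR-203-3p, at 2.03 ± 0.32, and the list summed to 276 to 628 CPM with quercetin plus LPS, 227 to 334 with quercetin, 244 to 303 with LPS and 207 to 307 in controls. Of the 4 neural and sensory miRNAs, 3 were tested, and miR-204-5p, a miRNA of the retinal pigment epithelium, was lower with quercetin, at -1.70 ± 0.38 against control and -2.28 ± 0.40 for quercetin plus LPS against LPS. The call against control was lost without mouse 4 (-1.68, adjusted p = 0.0595) and without the 4 libraries that lay apart (-1.53, adjusted p = 0.0649, edgeR). The list summed to 1711 to 3597 CPM with quercetin plus LPS, 1455 to 2250 with quercetin, 1503 to 2233 with LPS and 1414 to 1857 in controls. Nearly all of this sum was miR-9-5p, at 1708 to 3592 CPM with quercetin plus LPS. The level of miR-204-5p was only 0.651 to 1.08 CPM with quercetin plus LPS (28 counts in the group) and 1.78 to 6.15 CPM in controls. Of the 10 myeloid miRNAs, miR-223-5p was lower for quercetin over control, at -0.98 ± 0.26. That call was lost with upper quartile scaling (-0.79, adjusted p = 0.0861), without mouse 4 (-0.88, adjusted p = 0.122), without the 4 libraries that lay apart (-0.78, adjusted p = 0.147) and on leaving out any 1 of control replicates 2 and 3 or quercetin replicates 3 and 4 (adjusted p 0.0587 to 0.0841, edgeR). miR-146b-5p was lower for quercetin plus LPS over LPS, at -1.68 ± 0.57, a call that was lost under 13 of the 15 other TMM references and with mouse as a replicate block (-1.61, adjusted p = 0.0712, edgeR). Neither of 2 lymphocyte miRNAs was called in either comparison. No listed name in the table was at 0 throughout a group.

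Other miRNAs known to target Foxo1 were set beside miR-182-5p. Of 6 listed, 5 were tested, and 0 rose and 1 fell for quercetin over control, with a median log2 fold change of -0.41. The member that fell, miR-27a-3p, changed by -0.65 ± 0.19 (adjusted p = 0.0262, edgeR), and the call was lost with upper quartile scaling (-0.44, adjusted p = 0.162), without mouse 4 (-0.76, adjusted p = 0.0656), without the 4 libraries that lay apart (-0.73, adjusted p = 0.0732) and on leaving out any 1 of control replicates 1 and 2 or the 4 quercetin replicates (highest adjusted p 0.120). For quercetin plus LPS over LPS it was -0.58 ± 0.19 (adjusted p = 0.0362, edgeR) and the list median was -0.15. The call with LPS passed with no TMM reference but the default: with each of the other 15 it was -0.52 to -0.40 (adjusted p 0.0593 to 0.149), and it was lost on leaving out any 1 of the 16 libraries, each of which also changed the reference.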

How the data were processed

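Small RNA libraries were analysed as raw counts of reads per mature miRNA, as deposited by the authors. The submitters' processing notes name cutadapt and the mouse build mm9. The aligner, the counting rule and all versions are not given in the sources used here, so it is not known how reads of similar miRNAs were assigned. The table has 1381 rows and 1377 names. A row with text among its counts and 4 rows (2 neighbouring pairs whose counts look exchanged in the quercetin libraries) were left out, and 4 names on 2 rows each were summed, leaving 1372 names. None of these is a member of the cluster. RefSeq names matched 1155 of the 1372 and 6 of 6 members.

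With R 4.3.3 and edgeR 4.0.16, low miRNAs were removed by filterByExpr, leaving 568. Libraries were scaled by TMM and all 16 entered a quasi-likelihood model that had 1 coefficient per group, with Benjamini-Hochberg adjustment over the 568 with a threshold of 0.05. DESeq2 1.42.0 and limma 3.58.1 (voom) were alternatives. CPM used TMM factors, log2 CPM a prior count of 2. The TMM reference library is chosen by edgeR from the libraries in the fit: it was quercetin replicate 1 here and another library in all 16 fits that left 1 library out, so those fits change the reference as well as the library. Shares were tested with exact permutation tests (scipy 1.17.1) and adjusted over 16 tests. The scripts were tested on simulated data.

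Named miRNAs were the members, miRNAs with the seed of a 5p member, the 5 most like the summed 5p arms, and up to 4 passing members of each list. The cluster and the lists were chosen with earlier results of these data known. Replicate numbers mark the mouse, per the labels and the series design. On the second principal component, control replicate 3 was at 12.2, beside LPS replicate 4 (14.2) and quercetin plus LPS replicate 4 (15.0). Control replicate 4 was at -0.629, near control replicates 1 (0.927) and 2 (0.680). Whether these controls carry the right mouse number was not tested. Counts by mouse, the replicate block and the fits without mouse 4 all rest on the labels. Deviations of libraries from their group means, correlated across miRNAs, had a mean r of 0.14 over 24 same-mouse pairs (-0.47 to 0.65, 11 over 0.1). The mean r was -0.04 over 72 pairs of different mice (-0.58 to 0.67, 21 over 0.1). These ranges overlapped almost wholly, so the means do not settle the mouse number of any 1 library. The p-values measure the spread between cultures of 4 mice. No libraries of a group were near duplicates.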

Additional observations from a re-analysis of the deposited data

Results flagged for a closer look

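The level of miR-183-5p in control replicate 2 was 747 CPM, against 143 to 234 CPM in the other 3 controls, and the gap set it apart from its group by Dixon's test. It was the only value set apart in 36 groups of 4 libraries examined, and chance sets apart about 1 in 20 such groups.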

How the results depend on the processing

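The limits are depth and mice. miR-96-5p and miR-183-3p rest on few counts, and the SE of miR-183-5p would hide a change of the size seen for miR-182-5p. Most calls of the members were lost without mouse 4, and the cause was not tested. Fewer libraries are in that fit, and no other mouse was left out as a whole, so a need for mouse 4 in particular is not shown. Fits that leave out 1 library also change the TMM reference. Log2 fold changes are given throughout, and adjusted p-values are from edgeR unless another tool is named.

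The count of miRNAs past the threshold was 3 for LPS over control, and 1 with library size scaling, 6 with DESeq2, 0 without mouse 4 and 0 without the 4 libraries that lay apart (0 to 5 on leaving out 1 library). For quercetin over control it was 90, and 55 among miRNAs with a mean of at least 10 CPM, 46 without mouse 4 and 45 without the 4 libraries (54 to 99). For quercetin plus LPS over LPS it was 130, and 69 at 10 CPM, 70 with only the groups compared and 79 without mouse 4 (80 to 141). For quercetin plus LPS over quercetin it was 2, and 4 with DESeq2 and 1 without mouse 4 (2 to 7). For the interaction it was 0, and 1 with the table's lines as deposited. For pooled quercetin it was 206, and 111 at 10 CPM. For pooled LPS it was 8, and 3 with library size scaling, 5 with limma-voom, 3 without mouse 4, 4 without the 4 libraries and 5 with quercetin plus LPS replicate 4 as the TMM reference (3 to 8).

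For quercetin over control, miR-182-5p was 1.07 without mouse 4. miR-96-5p no longer passed at 1.22 with limma-voom, 1.23 with no filter, 1.22 without mouse 4, 1.22 without the 4 libraries, and 1.19, 1.13 and 1.18 with control replicate 3, quercetin plus LPS replicate 3 and LPS replicate 4 as the TMM reference (1.07 to 1.44 on leaving out 1 library). For quercetin plus LPS over LPS, miR-182-5p no longer passed at 1.18 with only the groups compared (adjusted p = 0.0514), 0.81 without mouse 4 and 0.81 without the 4 libraries, and miR-96-5p at 1.10 in each of the last pair. There miR-183-5p turned to -0.27 in both, and miR-223-5p, near 0, turned to -0.0303 with limma-voom, -0.017 with the replicate block, -0.016 without mouse 4 and -0.012 without the 4 libraries (-0.035 to 0.29 on leaving out 1 library).

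None of the other values that turned sign had passed. Without mouse 4 and without the 4 libraries, quercetin plus LPS over quercetin was -0.10 and -0.11 for miR-182-5p and -0.25 and -0.26 for miR-183-5p, pooled quercetin was -0.088 and -0.029 for miR-183-5p, and pooled LPS was -0.064 and -0.012 for miR-183-5p. Pooled LPS was -0.059 for miR-183-3p without mouse 4. The interaction was -0.37 and -0.49 for miR-183-5p and -0.12 and -0.13 for miR-96-5p in those fits, and -0.13 and -0.0034 with limma-voom. The interaction of miR-182-5p was 0.0017, 0.0011, 0.013 and 0.011 with LPS replicate 2, quercetin plus LPS replicate 2, control replicate 3 and LPS replicate 4 as the TMM reference.

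On leaving out 1 library, the following ranges crossed 0. LPS over control gave -0.10 to 0.39 for miR-182-5p, -0.54 to 1.02 for miR-183-5p and -0.028 to 0.35 for miR-96-5p. The interaction gave -0.24 to 0.29, -0.65 to 0.91 and -0.0028 to 0.46 for the same miRNAs. miR-183-5p gave -0.081 to 0.59 for quercetin plus LPS over quercetin and -0.085 to 0.70 for pooled LPS. miR-199a-3p gave -0.25 to 1.13 for quercetin over control. Of the shares, in points, LPS over control gave -2.37 to 1.73 for miR-182-5p, -1.74 to 2.38 for miR-183-5p and -0.0217 to 0.0136 for miR-96-5p. Quercetin plus LPS over quercetin gave -1.15 to 0.555 for miR-182-5p and -0.573 to 1.14 for miR-183-5p. The miR-96-5p share gave -0.00896 to 0.0147 for quercetin over control, and the 5p arm share of miR-183 gave -0.309 to 0.259 for quercetin plus LPS over LPS.

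With mouse as a replicate block, the quercetin difference was 1.19 for miR-182-5p and 1.20 for miR-96-5p without LPS and 1.06 and 1.24 with LPS, and the pairing changed no call of a member. Of the other miRNAs named, the block ended the calls of miR-143-3p and miR-146b-5p for quercetin plus LPS over LPS and of miR-10b-5p for quercetin over control (1.03, adjusted p = 0.0632).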
